A study of Homo sapiens with 36 samples.

Results

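The genes described here encode the nuclear subunits of the mitochondrial respiratory chain and of ATP synthase. They were found by name in the gene count table: names starting NDUFA, NDUFB, NDUFC, NDUFS or NDUFV for complex I, SDHA to SDHD for complex II, UQCR for complex III, COX4 to COX8 for complex IV, and ATP5 for complex V. Assembly factors named NDUFAF, antisense names and the pseudogenes ATP5EP2 and UQCRBP1 were left out. The rule found 89 of 29744 genes, and 82 of them passed a filter on low counts that 14988 genes passed in all. Among the 82 tested genes, 38 belonged to complex I, 4 to complex II, 9 to complex III, 14 to complex IV and 17 to complex V.

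The RNA came from BxPC-3, an established human cell line of pancreatic adenocarcinoma labelled wild type. All cells were given a compound at 3 µM or the solvent DMSO for 2 or 4 h. The compounds were TRAP1 (a compound, spelled TRAP-1 in the treatment protocol, and not the chaperone gene of that name), TRAP-1-NegB, TRAP-1-NegP, JQ1 and MS78. JQ1 is an inhibitor of BET bromodomain proteins, which bind acetylated chromatin and promote transcription. The labels do not state what NegB, NegP or MS78 stand for. Each of the 12 combinations of compound and time had 3 libraries, 36 in all. The labels do not say whether the 3 came from separate cultures, so the p-values measure the spread between libraries, which may be technical.

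The respiratory chain lies in the inner mitochondrial membrane. Complex I takes electrons from NADH and complex II from succinate; complex III passes them to cytochrome c and complex IV to oxygen. Complexes I, III and IV pump protons, and complex V, the ATP synthase, lets them flow back to make ATP. A few subunits are encoded by mitochondrial DNA and were not analysed here; all others are transcribed in the nucleus and their proteins are imported. Nuclear respiratory factor 1, ETS family factors and YY1 are known regulators of many of these genes. In epithelial cancer lines they are expressed throughout the population as housekeeping genes.

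Total estimated counts per library ran from 15288688 to 26608325. The line expressed its defining epithelial markers in all libraries: the keratin KRT19 was at a median of 3273 TPM (a level scaled by transcript length and library size) and never under 2658. Markers of fibroblasts, endothelium, acinar and endocrine cells summed to 3.62 TPM or less per library for each type; insulin and glucagon were at 0 throughout. Of 5 haematopoietic markers CD68 had a median of 22.5 TPM, while PTPRC, the pan-leukocyte gene, had a median of 0. In bulk RNA, fewer cells and less RNA per cell cannot be told apart. Replicate 1 of TRAP1 at 4 h, by its genes without a count, and replicate 1 of MS78 at 2 h stood apart from their groups. The TRAP1 library had 1287 tested genes without a count against 929 and 503 in the others, and the MS78 library had the largest total. Log2 deviations from the mean of all libraries, high-GC minus low-GC genes, were 0.49 in this MS78 library and −0.10 and −0.36 in the others. The members' median deviation was −0.002 in this MS78 library, against −0.23 and −0.28. In the TRAP1 library it was 0.33, near the 0.34 and 0.35 of the others. Counts of members that rest on the libraries that stand apart are given with and without them.

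The promoters of 4 members are shown because the results below turn on their genes. At 4 h ATP5A1 (now ATP5F1A) rose with TRAP1 and with JQ1, COX4I1 rose with TRAP1 (but not with library totals), NDUFB10 fell with JQ1, and UQCRFS1 fell with both. Each line holds the 250 bases before the RefSeq gene start in GRCh38.p14, written 5′ to 3′ on the gene's strand. They lie at chr18:46104228-46104477 on the minus strand, chr16:85799445-85799694 on the plus strand, chr16:1959288-1959537 on the plus strand and chr19:29213152-29213401 on the minus strand. Capitals mark the SP1 core GGGCGG on either strand.
ATP5A1: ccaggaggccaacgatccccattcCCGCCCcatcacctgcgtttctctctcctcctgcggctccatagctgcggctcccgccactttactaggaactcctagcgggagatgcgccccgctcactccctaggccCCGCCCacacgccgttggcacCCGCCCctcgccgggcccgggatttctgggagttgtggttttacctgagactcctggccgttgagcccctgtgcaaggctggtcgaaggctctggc
COX4I1: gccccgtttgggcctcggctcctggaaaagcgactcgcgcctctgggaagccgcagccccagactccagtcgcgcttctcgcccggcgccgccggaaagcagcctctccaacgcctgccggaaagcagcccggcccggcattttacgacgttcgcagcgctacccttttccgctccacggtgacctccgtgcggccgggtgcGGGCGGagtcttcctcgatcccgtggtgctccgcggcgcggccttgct
NDUFB10: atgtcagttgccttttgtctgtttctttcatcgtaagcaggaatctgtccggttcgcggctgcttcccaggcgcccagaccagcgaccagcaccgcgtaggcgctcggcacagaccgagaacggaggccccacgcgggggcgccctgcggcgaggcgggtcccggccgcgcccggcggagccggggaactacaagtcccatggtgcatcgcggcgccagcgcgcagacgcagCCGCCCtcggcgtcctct
UQCRFS1: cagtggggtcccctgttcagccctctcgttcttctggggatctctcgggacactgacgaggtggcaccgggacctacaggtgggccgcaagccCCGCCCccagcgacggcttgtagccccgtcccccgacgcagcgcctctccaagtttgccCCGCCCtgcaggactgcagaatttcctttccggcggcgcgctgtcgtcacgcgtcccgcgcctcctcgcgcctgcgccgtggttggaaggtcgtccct
The SP1 core occurred in each of these 4 windows, with 3 matches for ATP5A1, 2 for UQCRFS1 and 1 each for COX4I1 and NDUFB10.

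Promoter windows of 300 bases, 250 before and 50 after the start, were present for 68 of the 82 genes. Motifs were searched as exact letters on both strands, and matches of the ETS and YY1 cores can overlap by the letters AAG. The nuclear respiratory factor 1 core GCGCATG was in 14 windows, 20.6% of the 68, against 7.27% of 11290 windows of tested genes. The YY1 core AAGATGG was in 16 (23.5%, against 7.33%) and the ETS core CCGGAAG in 19 (27.9%, against 18.4%). The SP1 core was in 40 (58.8%, against 68.4%), the E-box CACGTG in 7 (10.3%, against 9.88%) and TATAAA in 6 (8.82%, against 6.29%). A match describes the letters in the window only.

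Levels between genes are compared here per length, as mean TPM over the 6 DMSO libraries. The highest were COX7C at 1570, the complex III hinge protein gene UQCRH at 1513, ATP5J2 at 1398, COX6A1 at 1357, COX4I1 at 1307, COX8A at 1273 and the catalytic F1 subunit gene ATP5B at 1246. Low levels were found for SDHC at 50.4 TPM, NDUFA5 at 49.1, NDUFA10 at 40.9, the iron-sulfur core subunit gene NDUFS1 at 29.9 and NDUFV3 at 26.9. Isoforms known from other tissues or from hypoxia were near 0: COX6B2, the testis form, was at 2.64 TPM and NDUFA4L2 at 0.33. The muscle forms COX6A2 and COX7A1, the lung form COX4I2, COX7B2 and COX8C did not pass the filter; COX6A2, COX7B2 and COX8C had no count in any library. The retrocopy ATP5L2 and the read-through gene ATP5J2-PTCD1 also failed it. ATP5S and ATP5SL passed by name although their products are not stable subunits of the enzyme, and reads of ATP5G1, ATP5G2 and ATP5G3, of UQCRH and UQCRHL, and of NDUFC2 and NDUFC2-KCTD14 may be split between near-identical or overlapping genes.

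Summed over all members, the transcripts took about the same share of TPM in DMSO at both times: 29981 ± 278 (SD, n = 3) at 2 h and 30102 ± 354 at 4 h. At 4 h the sum was 29959 ± 155 with TRAP1, 29385 ± 204 with TRAP-1-NegP, 29348 ± 302 with TRAP-1-NegB, 28721 ± 387 with MS78 and 28166 ± 261 with JQ1. The TRAP1 libraries (30139, 29868 and 29871) overlapped DMSO (29701, 30235 and 30371), and all 3 JQ1 libraries (28253, 27872 and 28372) lay below. At 2 h the sums were 28508 ± 281 with TRAP1, 29317 ± 233 with TRAP-1-NegP, 27790 ± 364 with JQ1, 27951 ± 153 with TRAP-1-NegB and 28068 ± 671 with MS78. TPM is a share of all transcripts, while the fold changes below are on counts scaled by TMM (trimmed mean of M values), which sets the typical gene's change to 0, so these scales need not move together.

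**Figure D1:**
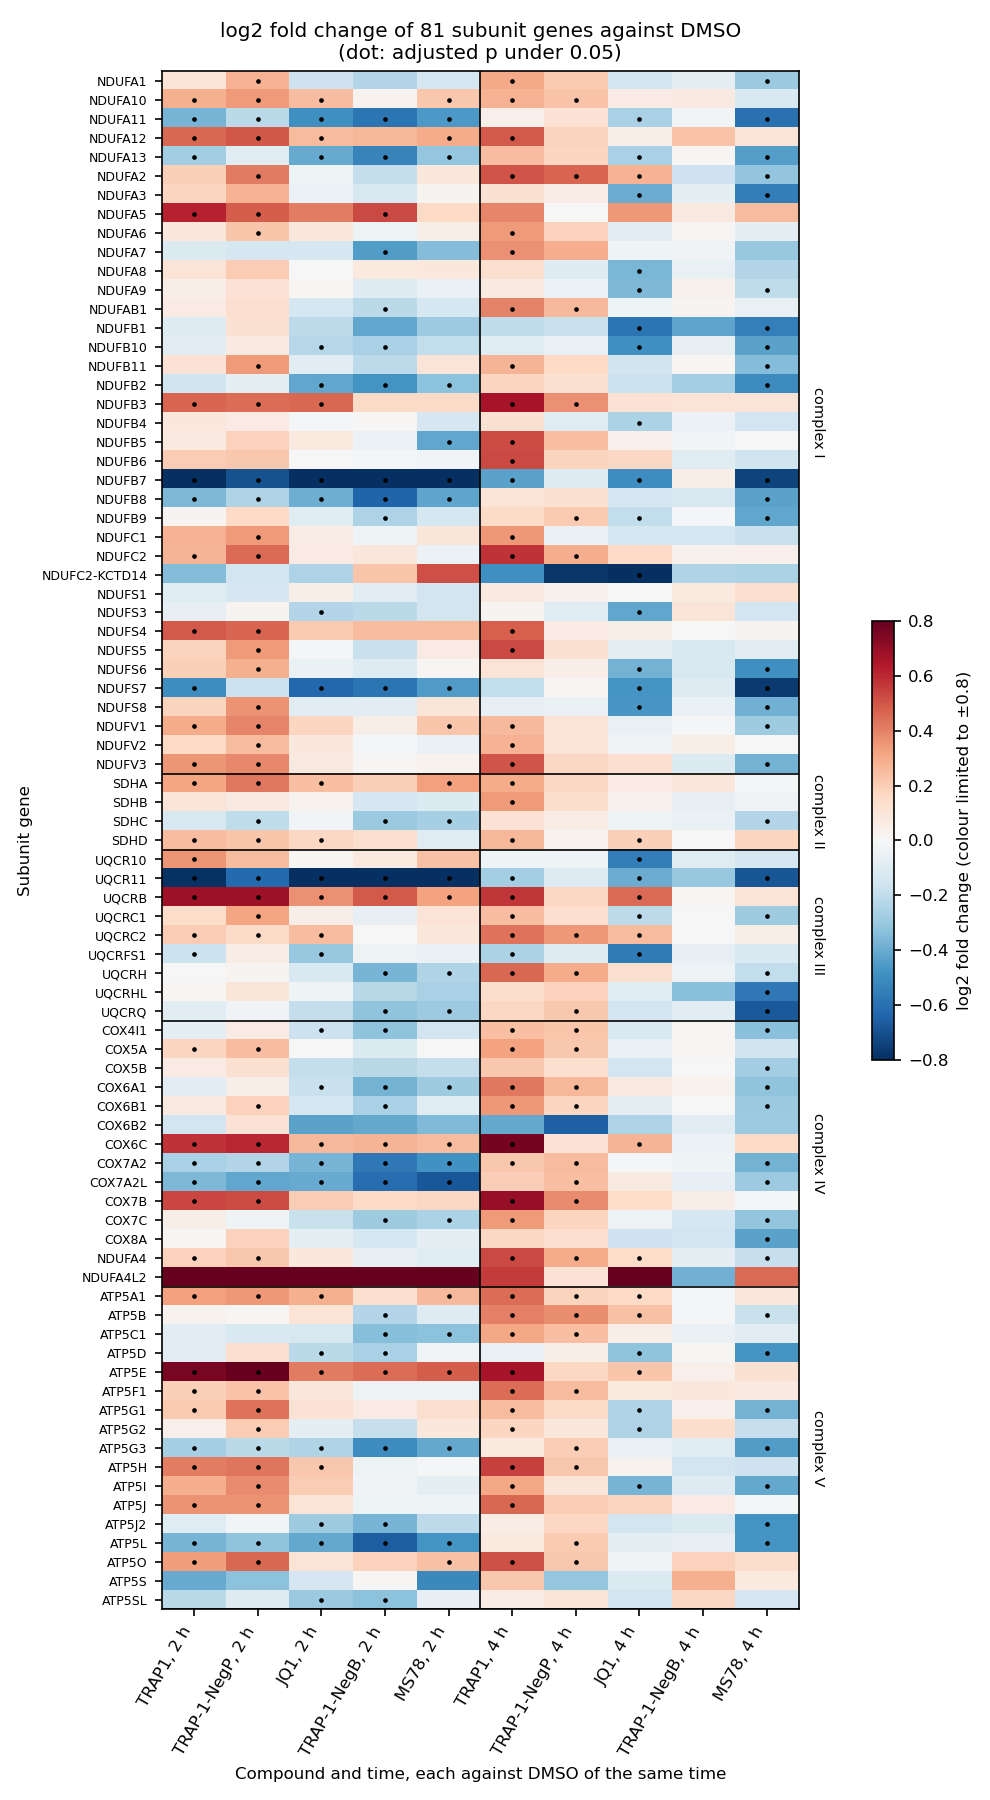
Each row is 1 of 81 subunit genes, ordered by complex, and each column a compound and time against DMSO of the same time; colour gives the log2 fold change, limited to 0.8 in either direction, and a dot marks an adjusted p under 0.05. The TRAP1 column at 4 h is mostly red with 45 dots of higher genes (19 with library totals), and the MS78 column at 4 h mostly blue with 40 dots of lower genes.

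With TRAP1 at 4 h, 45 of the 82 genes rose and 3 fell against DMSO after TMM scaling, whereas 19 were higher and 18 lower when library totals were used in place of TMM factors. Over all genes tested, 22.2% were called higher and 24.5% lower in the same comparison. Calls are at an adjusted p under 0.05 from edgeR's quasi-likelihood test with Benjamini-Hochberg adjustment over all 14988 genes. The median log2 fold change of the members was 0.26, beside −0.02 over all genes. Risers were found in each complex: 18 of 38 in complex I, 3 of 4 in complex II, 4 of 9 in complex III, 9 of 14 in complex IV and 11 of 17 in complex V. In TPM, complex I summed to 9059 ± 189 (SD, n = 3) with TRAP1, below all DMSO libraries (9774 ± 343). Complex IV summed to 9608 ± 130, above all DMSO libraries (9242 ± 143). The sums of complexes II, III and V overlapped DMSO. With library totals the members' median was −0.005 and that of all genes −0.29. A change of scaling moves all genes of a comparison by nearly the same amount, so it cannot test the gap between these medians.

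ATP5A1, the alpha subunit of the F1 head of ATP synthase, was at 504, 471 and 481 CPM (counts scaled to a common library size after TMM) in DMSO and at 677, 655 and 657 with TRAP1 at 4 h. All 3 TRAP1 libraries were above all DMSO libraries. The log2 fold change was 0.45 (SE 0.048, edgeR adjusted p = 1.59e-11), a 1.37-fold rise. The beta subunit gene ATP5B, which forms the catalytic sites, went from 1450, 1424 and 1424 CPM to 1950, 1883 and 1840, again without overlap (log2 fold change 0.40, SE 0.044, edgeR adjusted p = 4.04e-11). ATP5E, the epsilon subunit of the central stalk, rose by 0.66 on the log2 scale, and ATP5O, which joins the peripheral stalk to the head, by 0.51. Other complex V genes that rose included ATP5F1 (0.45) and ATP5H (0.55) of the peripheral stalk and ATP5C1 (0.31) of the central stalk. In mean TPM, ATP5F1 (291 in DMSO, 313 with TRAP1) and ATP5H (393, 464) were also higher, while ATP5C1 (276, 270) was not. ATP5A1 (391, 419) and ATP5B (1210, 1255) were higher in mean TPM, but on that scale their TRAP1 and DMSO libraries overlapped.

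In complex IV, COX6C, a small nuclear subunit, was at 95.1, 93.6 and 90.1 CPM in DMSO at 4 h and at 164, 162 and 149 with TRAP1. The groups did not overlap, and at a log2 fold change of 0.77 (SE 0.085, edgeR adjusted p = 5.23e-11) this was the highest estimate among the 82. NDUFA4, once assigned to complex I and now counted in complex IV, was at 210, 223 and 219 CPM in DMSO and 309, 307 and 324 with TRAP1. Its log2 fold change was 0.53 (SE 0.056, edgeR adjusted p = 1.61e-11), also without overlap. COX7B rose by 0.70, COX5A by 0.32 and COX4I1, the widely expressed form of subunit 4, by 0.24 (edgeR adjusted p = 0.000658), although COX4I1 turned to −0.03 with library totals. In mean TPM, COX7B was at 844 in DMSO and 1135 with TRAP1, COX5A at 488 in both and COX4I1 at 1316 and 1234. The tissue-restricted COX6B2 and NDUFA4L2 were not called.

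Within complex I the conserved core subunits, which carry the flavin and the iron-sulfur clusters, were counted apart from the accessory ones. Of the 7 core genes 2 rose, NDUFV1 by 0.26 (−0.01 with library totals) and NDUFV2 by 0.28, with a core median of 0.02; 16 of 30 accessory genes rose and 1 fell, with a median of 0.29. The difference between the subsets was not tested. NDUFS1 had a log2 fold change of 0.07 (edgeR adjusted p = 0.524) and was not called. Among accessory genes NDUFC2 rose by 0.58 and NDUFS5 by 0.53. In complex II, SDHA, the flavoprotein that oxidises succinate, rose by 0.29 and SDHB, its iron-sulfur partner, by 0.34. Their mean TPM did not rise: SDHA was at 200 in DMSO and 192 with TRAP1, and SDHB at 205 in both. In complex III the core genes UQCRC1 (0.24, and −0.03 with library totals) and UQCRC2 (0.43) and the small subunit gene UQCRB (0.57) rose. In TPM all UQCRC1 libraries were lower with TRAP1 (mean 312) than in DMSO (335). UQCRC2 (221 in DMSO, 235 with TRAP1) and UQCRB (59.0, 72.0) were higher in mean TPM, with overlapping libraries.

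The 3 genes that fell with TRAP1 at 4 h were UQCRFS1, NDUFB7 and UQCR11. UQCRFS1, the Rieske iron-sulfur protein of complex III, was at 150, 151 and 147 CPM in DMSO and 130, 124 and 121 with TRAP1, without overlap (log2 fold change −0.25, SE 0.062, edgeR adjusted p = 0.000572). NDUFB7, an accessory subunit of complex I, was at 91.9, 101 and 113 CPM in DMSO and 59.9, 73.3 and 94.4 with TRAP1; the highest TRAP1 library overlapped DMSO (−0.43, edgeR adjusted p = 0.000649). UQCR11 overlapped too, at 107 to 138 CPM in DMSO against 94.2, 102 and 108 (−0.27, edgeR adjusted p = 0.0287). Its call was lost without replicate 1 of TRAP1 (−0.22, edgeR adjusted p = 0.112) or replicate 3 of DMSO (−0.19, edgeR adjusted p = 0.16). Leaving out both libraries that stand apart gave 52 members higher and 3 lower; without replicate 1 of DMSO, 5 were lower.

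**Figure D2:**
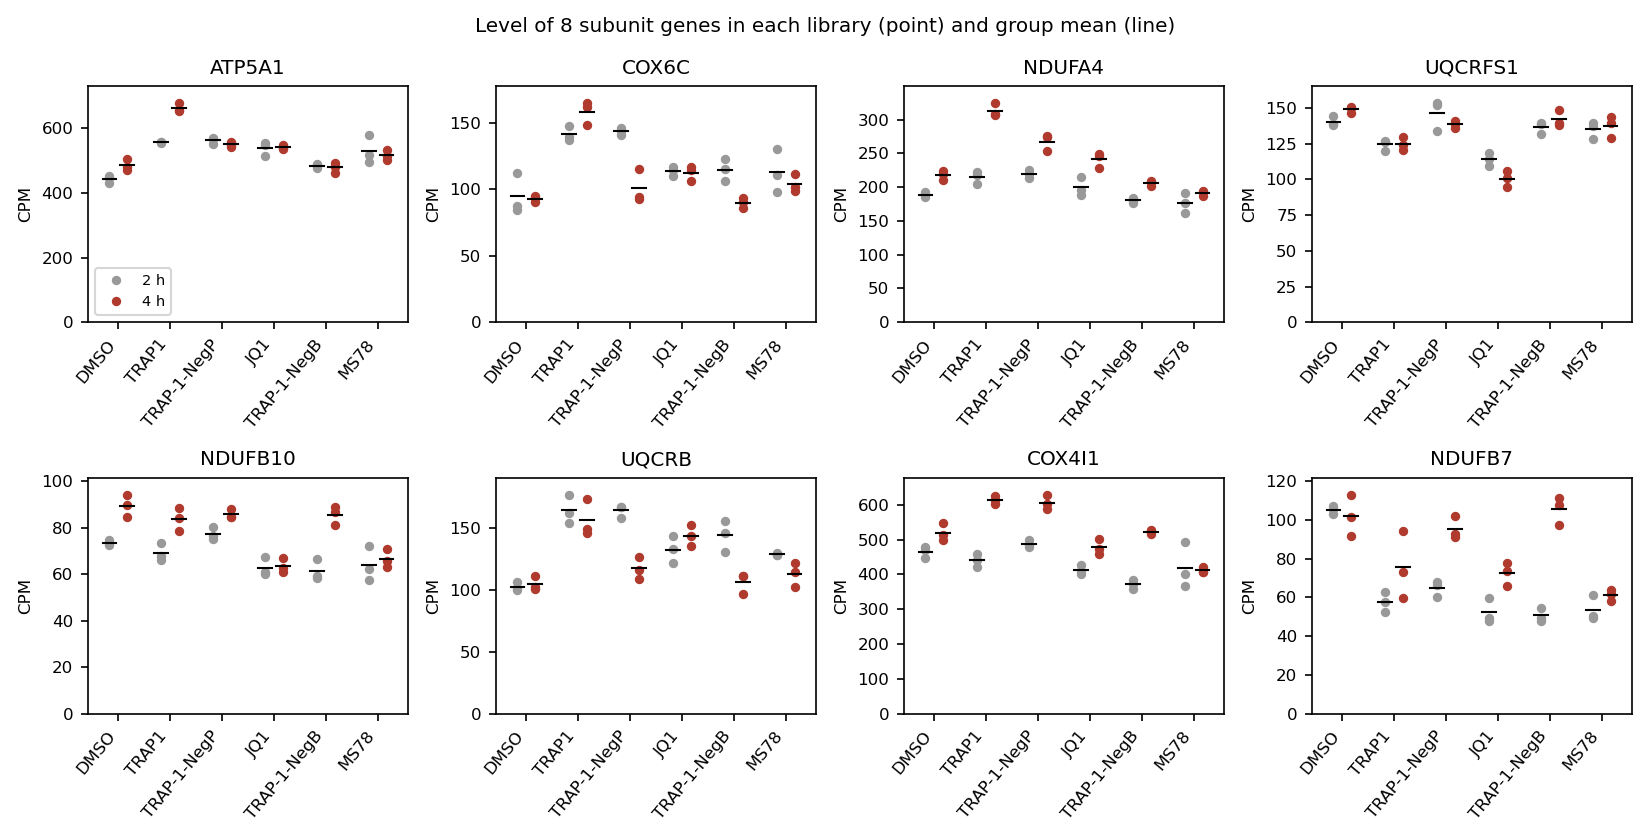
TMM-scaled CPM (vertical axis, from 0) of 8 subunit genes in each of the 36 libraries, grouped by compound, with grey points for 2 h, red points for 4 h and a line at the mean of 3 libraries. For ATP5A1, COX6C and NDUFA4 the 4 h TRAP1 points lie above all DMSO points, and for NDUFB10 the 4 h JQ1 and MS78 points lie below the 4 h DMSO points.

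JQ1 at 4 h was set against the same DMSO libraries: 9 members rose and 24 fell, against 24.3% and 24.6% of all genes. The median log2 fold change was −0.07, beside −0.01 over all genes. Complex I held 16 of the 24 genes that fell and 1 that rose; 4 of its 7 core genes fell, with a core median of −0.37. In complex III 2 rose and 4 fell, in complex IV 2 rose and none fell, and in complex V 3 rose and 4 fell. The share called lower among members lay near that of all genes, and the share called higher below it. With library totals 2 were higher and 44 lower, and the all-gene median was −0.14.

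UQCRFS1 was at 94.4, 106 and 101 CPM with JQ1 at 4 h, below the DMSO range of 147 to 151. Its log2 fold change of −0.57 (SE 0.063, edgeR adjusted p = 3.53e-11) had the smallest adjusted p among the members in this comparison. NDUFB10, an accessory subunit of the distal membrane arm of complex I, was at 84.4, 94.1 and 90.0 CPM in DMSO and 61.1, 62.8 and 67.1 with JQ1, without overlap (−0.49, edgeR adjusted p = 5.43e-07). NDUFA9, at the joint of the complex I arms, fell by 0.36 (147, 149 and 142 CPM against 114, 112 and 115), and UQCR10 by 0.55. Core genes that fell included NDUFS3 (−0.42), NDUFS7 (−0.47) and NDUFS8 (−0.46), all on the arm through which electrons travel to ubiquinone.

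UQCRB was 1 of the 2 complex III genes that rose with JQ1: 152, 143 and 136 CPM against 111, 101 and 103 in DMSO, without overlap (log2 fold change 0.45, edgeR adjusted p = 1.22e-06). The other complex III gene was UQCRC2, at 0.25. ATP5B rose by 0.24, COX6C by 0.27, ATP5E by 0.22, ATP5A1 by 0.16 (edgeR adjusted p = 0.00534) and NDUFA4 by 0.15. For ATP5A1 the JQ1 libraries were at 536, 549 and 539 CPM, above DMSO and below all TRAP1 libraries. In TPM the JQ1 libraries (412, 427 and 412) overlapped both TRAP1 (436, 415 and 405) and DMSO (419, 369 and 384).

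**Figure D3:**
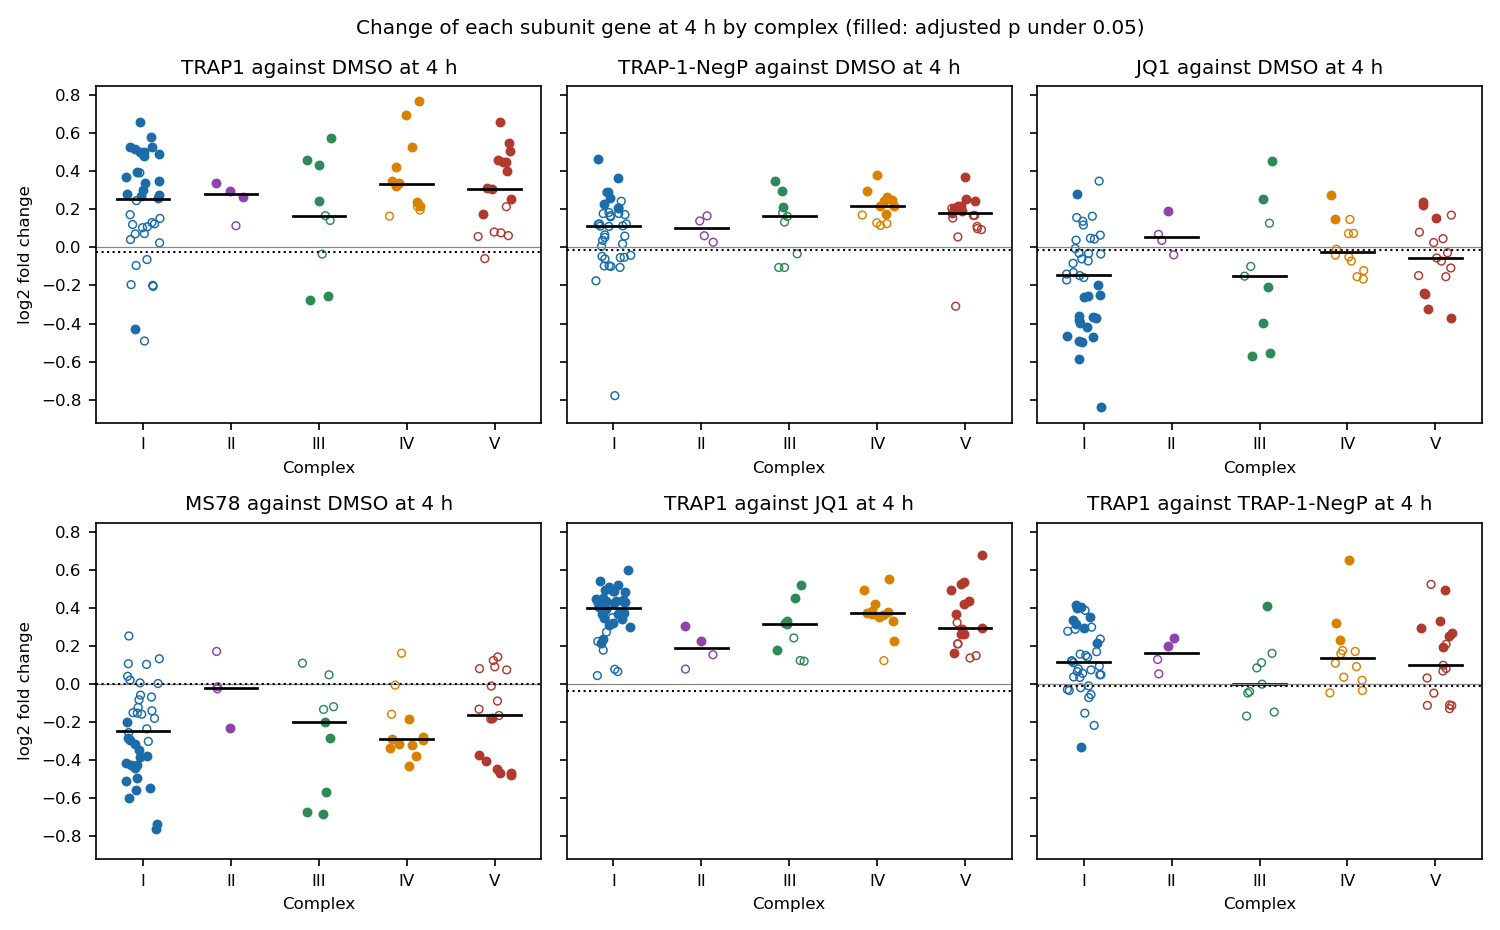
Log2 fold change at 4 h (vertical axis) of 80 subunit genes by complex (horizontal axis) in 6 comparisons, with filled points for an adjusted p under 0.05, a bar at the median of the points shown and a dotted line at the median of all genes tested; the barely expressed NDUFA4L2 and COX6B2 are not drawn. In TRAP1 against JQ1 every bar lies above the dotted line, and in MS78 against DMSO the bars of complexes I and IV lie lowest.

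A direct comparison of the compounds does not use the DMSO means, although the DMSO libraries enter the filter and the estimate of spread. TRAP1 against JQ1 at 4 h gave 61 members higher and none lower (69 and 0 at an unadjusted p under 0.05; 64 and 0 by DESeq2), where 12.5% of all genes were higher and 14.9% lower. The median difference was 0.36 on the log2 scale, beside −0.03 over all genes, and 80 of 82 estimates were positive. By complex, 30 of 38 were higher in complex I, 2 of 4 in complex II, 6 of 9 in complex III, 11 of 14 in complex IV and 12 of 17 in complex V. Without replicate 1 of TRAP1, 60 were called. Library totals left 45 higher and none lower. A correction of each library for GC content and transcript length, added after the data were seen, left 39 higher and none lower, with a median of 0.17.

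ATP5O was at 144, 152 and 128 CPM with JQ1 and 206, 216 and 194 with TRAP1 (log2 difference 0.54, SE 0.067, edgeR adjusted p = 7.35e-09). NDUFS5, an accessory subunit on the intermembrane side of complex I, was at 200, 180 and 204 CPM with JQ1 and 290, 296 and 297 with TRAP1 (0.60, edgeR adjusted p = 1.42e-08). For both genes all TRAP1 libraries were above all JQ1 libraries. COX7B differed by 0.55, NDUFA9 by 0.43, NDUFB10 by 0.40, COX4I1 by 0.36, NDUFV1 by 0.32, UQCRFS1 by 0.31 and SDHA by 0.23. In mean TPM, COX7B was at 1135 with TRAP1 and 937 with JQ1, and COX4I1 at 1234 and 1181. UQCRFS1 was at 137 and 135, with overlapping libraries, and SDHA was not higher with TRAP1 (192 and 200). NDUFS1 (0.08), UQCRB (0.12), NDUFB7 (0.06) and UQCR11 (0.12) were not called different.

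Of the 68 genes with a promoter window, 54 were higher with TRAP1 than with JQ1 and 14 were not called. The nuclear respiratory factor 1 core was in 12 of the 54 and 2 of the 14, the YY1 core in 14 and 2, the ETS core in 14 and 5, and the SP1 core in 32 and 8.

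With TRAP-1-NegP at 4 h 25 members rose, against 18.6% of all genes, with a median log2 fold change of 0.16, whereas 4 were higher and 11 lower with library totals. None fell by edgeR, against 18.9% of all genes; 1 was lower at an unadjusted p under 0.05, and DESeq2 called 1 lower. The 25 were 6 genes of complex I, 3 of complex III, 8 of complex IV and 8 of complex V. ATP5B was at 1843, 1798 and 1910 CPM, above the DMSO libraries (log2 fold change 0.37, edgeR adjusted p = 7.93e-10), and UQCRC2 rose by 0.35, NDUFA4 by 0.30, COX7B by 0.38, COX4I1 by 0.22 and ATP5A1 by 0.18. The all-gene median moved to −0.19 with library totals. Leaving out both libraries that stand apart gave 36 higher and 1 lower.

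TRAP1 exceeded TRAP-1-NegP at 4 h in 20 members and was lower in 1, beside 7.25% and 8.09% of all genes. COX6C was at 115, 92.6 and 94.3 CPM with TRAP-1-NegP, below the 149 to 164 of the TRAP1 libraries (log2 difference 0.65, edgeR adjusted p = 4.47e-08). ATP5E differed by 0.49 and ATP5A1 by 0.27, both without overlap. NDUFB7 was the member called lower with TRAP1 (−0.33, edgeR adjusted p = 0.0256), the groups overlapped, and the call was lost without replicate 1 or 2 of TRAP1 or replicate 3 of TRAP-1-NegP (adjusted p of 0.267, 0.0811 and 0.119). Without replicate 1 of TRAP1, the library that stands apart, 13 members were called in place of 21. Library totals gave 11 higher and 7 lower, and the GC and length correction 13 and 6.

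JQ1 against TRAP-1-NegP at 4 h gave 46 members lower and 1 higher, where 12.9% of all genes were called in each direction. UQCRFS1 was at 141, 136 and 139 CPM with TRAP-1-NegP, above all JQ1 libraries (log2 difference −0.46, edgeR adjusted p = 1.86e-07). NDUFB9 differed by −0.40 and COX4I1 by −0.34, and UQCRB was the gene higher with JQ1 (0.29). With the GC and length correction 20 were lower and 1 higher.

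HEXIM1, a P-TEFb inhibitor that BET inhibitors are known to raise, had log2 fold changes of 2.01 with TRAP1, 1.95 with JQ1 and 1.62 with TRAP-1-NegP, and of 0.04 with MS78 and 0.14 with TRAP-1-NegB at 4 h, the last 2 not called. CDKN1A, the p21 gene, had 5.59, 2.13, 2.08, 0.01 and 0.69 in the same order. At 4 h MS78 lowered 40 members and raised none (46 and 2 at an unadjusted p under 0.05; 42 and 2 by DESeq2), beside 9.05% lower and 6.23% higher of all genes; the members' median was −0.20 and the all-gene median −0.002. Complex I held 18 of the 40, complex II 1, complex III 5, complex IV 9 and complex V 7.

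COX4I1 was at 514, 548 and 499 CPM in DMSO and 407, 407 and 422 with MS78, without overlap (log2 fold change −0.34, edgeR adjusted p = 4.18e-05). NDUFB7, at 61.7, 58.3 and 63.6 CPM, also lay below all DMSO libraries (−0.74, edgeR adjusted p = 1.85e-06), as did NDUFB10 (62.9, 65.8 and 71.0 CPM, −0.43). With the GC and length correction 19 members were lower and 3 higher. COX4I1 then had a log2 fold change of −0.11 and was no longer called. Against TRAP-1-NegB in place of DMSO, a comparison added after the data were seen, MS78 had 30 members lower and none higher (43 and 3 at an unadjusted p under 0.05; 33 and 2 by DESeq2), beside 6.92% and 2.01% of all genes, and 11 and 1 with the correction.

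TRAP-1-NegB at 4 h changed no member in either direction by edgeR, where 0.827% of all genes were higher and 0.2% lower. At an unadjusted p under 0.05, 2 were higher and 5 lower, and DESeq2 also called none; calls numbered 1 in a fit on only the groups compared, 2 without a count filter and 2 with the GC and length correction. The interval of the log2 fold change was −0.11 to 0.08 for ATP5A1, −0.11 to 0.13 for COX4I1, −0.22 to 0.12 for COX6C and −0.19 to 0.06 for UQCRFS1. TRAP1 against TRAP-1-NegB at 4 h gave 53 higher and 3 lower, beside 22% and 24.2% of all genes. With library totals the counts were 20 and 12, and 55 were called without replicate 1 of TRAP1.

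At 2 h all 5 compounds were set against the same 3 DMSO libraries, so a deviation of those libraries enters every one of these comparisons. TRAP1 raised 24 members and lowered 11 (15.7% and 14.3% of all genes), TRAP-1-NegP 36 and 9 (16.4% and 13.9%), JQ1 11 and 19 (14.8% and 13.9%), TRAP-1-NegB 4 and 27 (5.08% and 5.87%) and MS78 9 and 18 (8.3% and 7.65%). The median log2 fold changes were 0.08, 0.18, −0.03, −0.11 and −0.06. For JQ1 the count of higher members was 6 without its replicate 3 and 7 without replicate 3 of DMSO, and the median became 0.01 without replicate 2 of DMSO. With the GC and length correction JQ1 had 19 higher and 14 lower and its median was 0.03. The TRAP1 median was 0.038 without its replicate 1 and turned to −0.05 with library totals, with 14 higher and 24 lower; a fit on only the groups compared gave 17 lower. With library totals TRAP-1-NegP had 20 higher and a median of 0.044, and JQ1 had 6 higher and a median of −0.11. For MS78 27 were lower without the libraries that stand apart, and a fit on only the groups compared called 8 in all.

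ATP5E was at 130, 152 and 130 CPM in DMSO at 2 h. It was at 262, 228 and 208 with TRAP1, 258, 263 and 249 with TRAP-1-NegP, 164, 188 and 199 with JQ1, 183, 191 and 188 with TRAP-1-NegB and 228, 173 and 178 with MS78. All 15 treated libraries lay above DMSO, and the log2 fold changes were 0.76, 0.90, 0.42, 0.44 and 0.49. UQCRB had 0.68, 0.68, 0.37, 0.49 and 0.32 in the same order. NDUFB7 lay on the other side: it was at 103, 107 and 106 CPM in DMSO and between 47.8 and 68.1 in every treated library, with log2 fold changes of −0.87, −0.70, −1.01, −1.05 and −0.97. UQCR11 had −0.79, −0.62, −0.81, −0.94 and −0.86, and ATP5L, a membrane subunit that joins ATP synthase dimers, −0.37, −0.32, −0.41, −0.66 and −0.48. All these values of ATP5E, UQCRB, NDUFB7, UQCR11 and ATP5L passed the test by edgeR.

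Comparisons between compounds at 2 h do not use the DMSO means, although the DMSO libraries enter the filter and the estimate of spread. TRAP1 against TRAP-1-NegP gave no call (0.527% and 0.274% of all genes); 15 were lower and 0 higher at an unadjusted p under 0.05, and DESeq2 called 1 lower. A fit on only the groups compared called 12 lower and none higher. The interval of the difference was −0.11 to 0.08 for ATP5A1, −0.08 to 0.10 for ATP5B, −0.19 to 0.14 for COX6C and −0.36 to −0.11 for UQCRFS1. TRAP1 exceeded JQ1 in 4 members and was lower in none (27 and 0 unadjusted; 8 and 0 by DESeq2), beside 1.1% and 0.887% of all genes. ATP5E differed by 0.34, COX7B by 0.33 and UQCRB by 0.31. None of the 4 was left without replicate 1 of either compound, and 2 were left without replicate 2 of JQ1 or replicate 3 of TRAP1. A fit on only the groups compared gave 13 higher, as did leaving out both libraries that stand apart. With the GC and length correction 2 members were lower and none higher.

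JQ1 was lower than TRAP-1-NegP at 2 h in 33 members and higher in none (50 and 3 unadjusted; 38 and 2 by DESeq2), beside 7.26% and 5.65% of all genes, with ATP5E at −0.48, UQCRFS1 at −0.36 and NDUFC2 at −0.39. Without replicate 1 or 2 of JQ1, 21 were called, and with the GC and length correction 7 were lower and 2 higher. TRAP1 exceeded TRAP-1-NegB in 40 members and was lower in none (60 and 1 unadjusted; 40 and 1 by DESeq2), beside 11.6% and 9.13% of all genes; 25 were called without replicate 1 of TRAP1, 17 with the GC and length correction, and 10 with library totals (8 higher and 2 lower). In comparisons added after the data were seen, TRAP-1-NegP exceeded TRAP-1-NegB in 58 members and was lower in none (66 and 0 unadjusted; 58 and 0 by DESeq2), beside 15% and 10.6% of all genes, with NDUFS5 at 0.52, COX4I1 at 0.39 and NDUFB7 at 0.36. With the correction 23 were higher and 1 lower, and with library totals 27 and 0. JQ1 exceeded TRAP-1-NegB in 13 and was lower in 1 (12% and 10.3%); 5 were called without replicate 3 of JQ1, 8 without replicate 2 of TRAP-1-NegB, and 2 higher and 3 lower with library totals.

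The members also differed between the DMSO groups. At 4 h against 2 h, 27 were higher and none lower (32 and 3 at an unadjusted p under 0.05; 29 and 0 by DESeq2), beside 11.4% and 9.45% of all genes, with a median of 0.14. NDUFV1 differed by 0.49, UQCRC1 by 0.40, SDHA by 0.30 and NDUFB10 by 0.28. Without replicate 2 of DMSO at 4 h, 12 were called, and with the GC and length correction 14 were higher and 5 lower. The change of a compound's effect from 2 to 4 h contains this shift. For TRAP1 24 members had a higher effect at 4 h and 1 a lower one (10.2% and 11.8% of all genes; 26 called without replicate 1 of TRAP1 at 4 h, and 11 and 3 with library totals), for TRAP-1-NegP 12 and 4 (11% and 12.2%; 20 and 12 in a fit on only the groups compared) and for JQ1 8 and 9 (13.2% and 12.8%).

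GC content moved with several of these results. Transcripts of the 82 genes had a median GC content of 50.4%, from 34.4% for NDUFA5 to 69.3% for ATP5D, and a median length of 764 bases, against 2478 over all genes tested. Across the 82 genes, which are not independent replicates, Spearman's rho between GC content and log2 fold change was −0.52 for TRAP1, −0.59 for JQ1 and −0.57 for MS78 against DMSO at 4 h, and 0.48 for DMSO at 4 h against 2 h. Over 13921 genes with a value it was −0.05 for TRAP1, −0.23 for JQ1 and −0.54 for MS78 at 4 h. For TRAP1 against JQ1 at 4 h rho with GC content was −0.04 over the members and 0.29 over all genes, and rho with transcript length was −0.28 and −0.34. The median log2 deviation from the mean of all libraries, in genes of the lowest length quartile minus those of the highest, was 0.27 to 0.37 in the TRAP1 libraries at 4 h and −0.13 to −0.09 in those of JQ1. Of the 41 members with lower GC content 28 rose with TRAP1 at 4 h and 1 fell, and of the 41 with higher content 17 rose and 2 fell. With the GC and length correction, TRAP1 at 4 h had 40 members higher and 5 lower with a median of 0.16, and JQ1 had 13 higher and 16 lower with a median of −0.01. The part of GC content in the remaining differences was not tested.

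**Figure D4:**
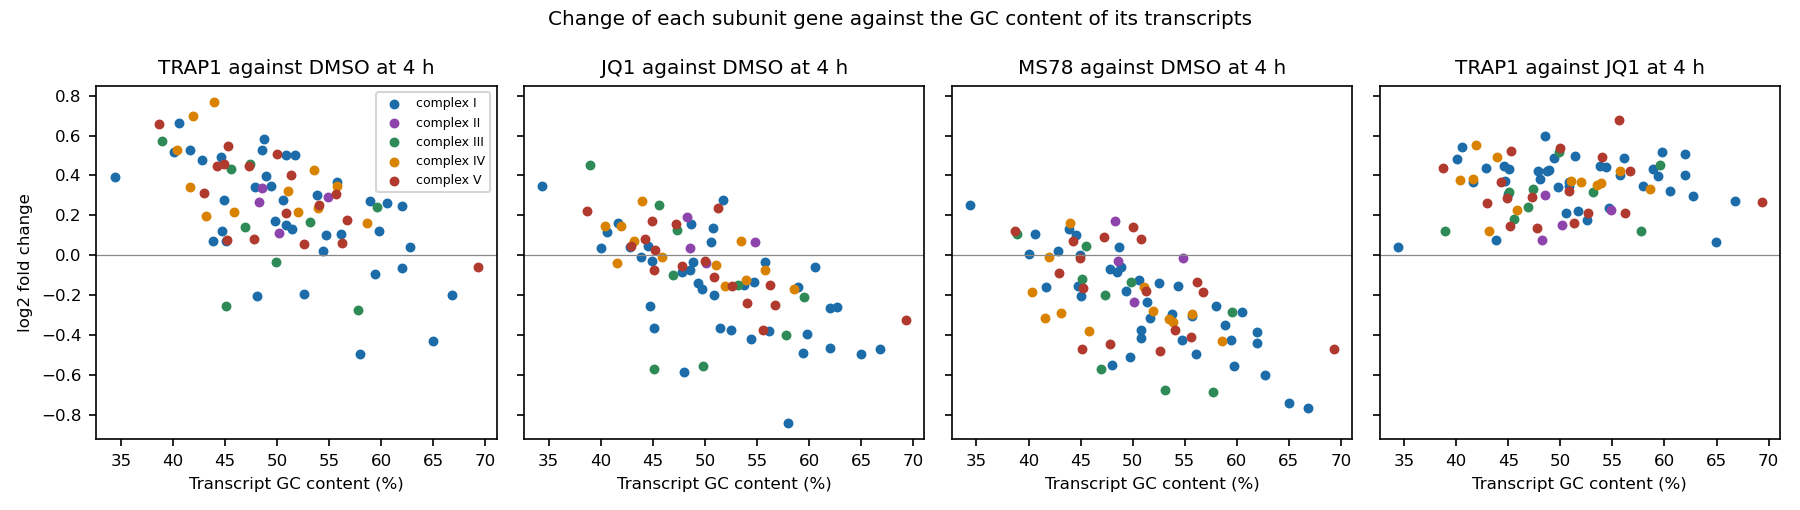
Log2 fold change (vertical axis) of 80 subunit genes against the GC content of their transcripts in percent (horizontal axis), coloured by complex, in 4 comparisons at 4 h; NDUFA4L2 and COX6B2 are not drawn. The points slope downward in each comparison with DMSO. In TRAP1 against JQ1, 80 of 82 estimates are above 0, counting the genes not drawn.

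Other lists of nuclear genes of mitochondrial function were counted the same way at 4 h, and differences between lists were not tested. Over all genes, 22.2% were higher and 24.5% lower with TRAP1, and 18.6% and 18.9% with TRAP-1-NegP. The shares were 24.3% and 24.6% with JQ1, and 6.23% and 9.05% with MS78. Of 76 mitochondrial ribosomal protein genes, which build the ribosome that makes the mitochondrially encoded subunits, 7 rose and 34 fell with TRAP1 (median −0.16), 1 and 31 with TRAP-1-NegP (−0.16), none and 56 with JQ1 (−0.41) and 3 and 27 with MS78 (−0.14). MRPS2 had log2 fold changes of −0.94 with TRAP1 and −1.17 with JQ1, and MRPL34 of −1.20 and −1.21. TRAP1 against JQ1 gave 33 of the 76 higher and none lower, with a median of 0.24, beside 12.5% and 14.9% of all genes. Of 19 genes of the tricarboxylic acid cycle, which feeds NADH and succinate to the chain, 13 rose and none fell with TRAP1, 11 and none with TRAP-1-NegP, 11 and 2 with JQ1, and 1 and 3 with MS78. OGDH, a subunit of 2-oxoglutarate dehydrogenase, had 0.73 with TRAP1 and 0.70 with JQ1, and IDH3A, of NAD-dependent isocitrate dehydrogenase, 0.53 and 0.75.

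**Figure D5:**
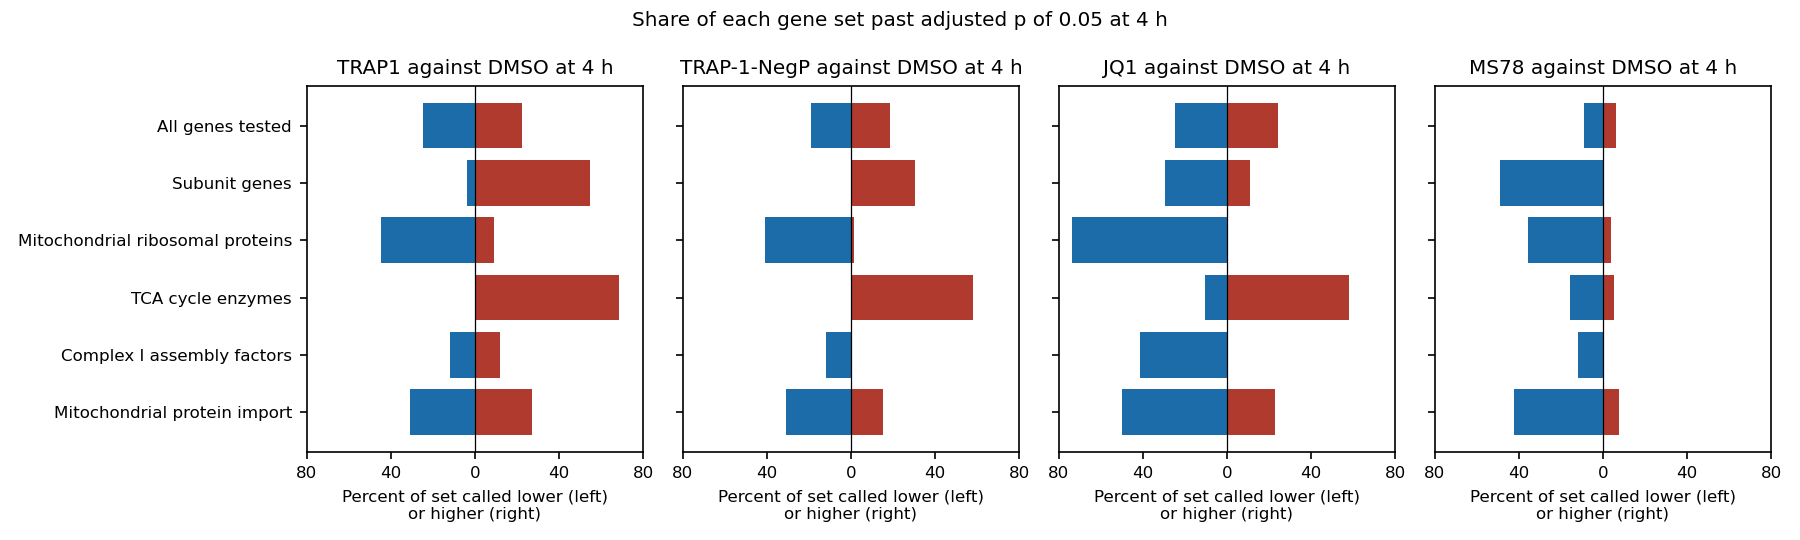
Percent of each gene set called higher (red, right) or lower (blue, left) at an adjusted p under 0.05 in 4 comparisons with DMSO at 4 h. The subunit bar reaches 54.9% higher with TRAP1 after TMM scaling (19 of 82 genes with library totals), while the bar of mitochondrial ribosomal proteins is longer on the left in all 4 comparisons.

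Of the 6 chain genes outside the name rule, the electron carrier gene CYCS had a log2 fold change of 0.86 with TRAP1, 0.89 with JQ1 and 0.55 with TRAP-1-NegP, all called, and of 0.22 with MS78, which was not. CYC1, cytochrome c1 of complex III, fell by 0.29 with TRAP1, by 0.40 with JQ1 and by 0.58 with MS78. Complex I assembly factors, which are not part of the finished enzyme, had 2 higher and 2 lower of 17 with TRAP1 and none higher and 7 lower with JQ1 (median −0.26). The shares of all genes were 22.2% and 24.5% with TRAP1 and 24.3% and 24.6% with JQ1. ECSIT, from this list, had −0.46 with TRAP1 and −1.01 with JQ1, and both passed the test.

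Among 23 regulators of mitochondrial biogenesis, 4 rose and 9 fell with TRAP1 at 4 h and 8 rose and 9 fell with JQ1. Of all genes, 22.2% rose and 24.5% fell with TRAP1, and 24.3% and 24.6% with JQ1. POLRMT, the RNA polymerase of mitochondrial DNA, had log2 fold changes of −1.34 with TRAP1, −1.52 with JQ1, −0.93 with TRAP-1-NegP and −0.54 with MS78. The coactivator genes PPARGC1B (−2.48 and −1.87) and PPRC1 (−0.86 and −0.71) fell with TRAP1 and JQ1. POLG, the mitochondrial DNA polymerase, rose by 0.70 and 0.94, and NRF1, which encodes nuclear respiratory factor 1, by 0.54 and 0.76. All values of these 5 genes in TRAP1 and JQ1 passed the edgeR test.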

How the data were processed

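Gene levels of 36 BxPC-3 libraries were quantified by the authors with Salmon 1.10.3 in nf-core/rnaseq 3.18.0 against hg38, per the series' design text and the submitters' processing notes, with an annotation release not given in the sources used here. Estimated counts, not normalized for depth, make up the deposited gene table, and a second deposited table holds TPM. After rounding, these estimated counts were tested with edgeR 4.0.16 under R 4.3.3: filterByExpr with a minimum count of 10 kept 14988 of 29744 genes, libraries were scaled by TMM, and 1 mean per group was fitted over all 36 libraries by quasi-likelihood with robust dispersions. The common biological coefficient of variation was 0.135. P-values were adjusted by Benjamini-Hochberg over all genes of a comparison, with calls under 0.05. There were 22 planned comparisons and 3 added later. All columns were matched to samples by name, and 61 gene names occur more than once. GC content and length are those of GENCODE transcripts of GRCh38. RefSeq promoters are of GRCh38.p14, and the first 20 transcribed bases of 65 of the 68 matched windows occur in a GENCODE transcript of the gene.

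The members and gene lists were chosen with earlier results of these data known. Members named were those with the smallest adjusted p per direction (4 against DMSO, 3 between compounds), a panel with core subunits of each complex, and tissue-restricted isoforms; members added for a complex's account, and those named in comparisons with MS78, TRAP-1-NegB and DMSO over time, were chosen after their values were seen. List genes were named likewise, up to 3 per direction, besides CDKN1A, HEXIM1 and some named for a contrast. Alternatives were DESeq2 1.42.0, its size factors, upper-quartile factors, library totals, 2 other count filters, length-scaled estimated counts as deposited by the authors, only the groups compared, a replicate block, each library left out and, added later, both libraries that stand apart left out and a loess correction for GC content and length. Values of 1 member, which stays in all fits and counts, are not reported here.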

Additional observations from a re-analysis of the deposited data

Results flagged for a closer look

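For 33 values of named members, the effect against DMSO at 4 h differed from that at 2 h by the interaction test of edgeR at an adjusted p under 0.05. Each value below is the log2 effect at 4 h minus that at 2 h. The shift between the DMSO groups enters all of them, and the comparisons share those libraries, so the compounds are given side by side.

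With TRAP1, 14 of 31 named members differed, where 10.2% of all genes had a higher effect and 11.8% a lower one. The effect was higher at 4 h for COX7A2L (0.56), which joins complexes III and IV into supercomplexes, UQCR11 (0.51), NDUFB8 (0.46), ATP5L (0.45), NDUFB7 (0.44), NDUFA11 (0.42), ATP5B (0.38), NDUFS5 (0.35), NDUFA4 (0.34), COX4I1 (0.32), NDUFC2 (0.31), SDHB (0.24) and UQCRC2 (0.23). UQCR10 was the exception, at −0.39.

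TRAP-1-NegP gave 10 of 31, beside 11% higher and 12.2% lower of all genes. The effect was higher at 4 h for COX7A2L (0.66), NDUFB7 (0.60), ATP5L (0.53), UQCR11 (0.51), ATP5B (0.36), NDUFB8 (0.36) and NDUFA11 (0.33), and lower for ATP5E (−0.73), UQCRB (−0.51) and COX6C (−0.49).

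JQ1 gave 9 of 31, beside 13.2% higher and 12.8% lower of all genes. The effect was higher for NDUFB7 (0.51), COX7A2L (0.48), UQCR11 (0.41), ATP5L (0.34) and NDUFB8 (0.26), and lower for UQCR10 (−0.57), NDUFA9 (−0.38), UQCRFS1 (−0.27) and UQCRC1 (−0.26).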

How the results depend on the processing

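Of 177 values of named members, library totals in place of TMM factors reversed 6, took 14 out of the calls and added 12; the GC and length correction, added after the data were seen, reversed 2, took out 13 and added 14. No other alternative reversed one. Precision is limited by 3 libraries a group; the cause of each change was not tested.

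With library totals, members higher and lower with their median were 14, 24 and −0.046 for TRAP1 at 2 h, 19, 18 and −0.0050 for TRAP1 at 4 h, and 2, 44 and −0.20 for JQ1 at 4 h. For TRAP-1-NegP 20 were higher with a median of 0.044 at 2 h, and 4 were higher and 11 lower with −0.017 at 4 h; for JQ1 at 2 h 6 were higher with −0.11. TRAP1 against TRAP-1-NegB had 10 calls at 2 h and 32 at 4 h, the TRAP1 effect between times 14, and TRAP-1-NegP and JQ1 against TRAP-1-NegB at 2 h 27 and 5. The reversed values were ATP5B with TRAP1 (−0.10) and TRAP-1-NegP (−0.13) at 2 h, and NDUFS1 (−0.20), NDUFV1 (−0.0082), UQCRC1 (−0.025) and COX4I1 (−0.031) with TRAP1 at 4 h.

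With the GC and length correction, TRAP1 at 4 h had 5 lower and a median of 0.16, TRAP-1-NegP 14 lower and 0.089 at 2 h and 3 lower and 0.12 at 4 h, and JQ1 19 higher at 2 h and a median of −0.011 at 4 h. Calls numbered 2 for TRAP-1-NegB at 4 h, 22 for MS78 at 4 h, 1 for TRAP1 against TRAP-1-NegP at 2 h, 2 and 39 for TRAP1 against JQ1 at 2 and 4 h, 9 and 21 for JQ1 against TRAP-1-NegP, 17 for TRAP1 against TRAP-1-NegB at 2 h, 26 for the TRAP-1-NegP effect between times, 24 for TRAP-1-NegP against TRAP-1-NegB at 2 h and 12 for MS78 against TRAP-1-NegB at 4 h. NDUFV1 (0.18) and UQCRC1 (0.025) reversed with JQ1 at 4 h.

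Fits on only the groups compared gave 17 lower for TRAP1 at 2 h, 1 lower for TRAP-1-NegP at 4 h, and calls of 1 for TRAP-1-NegB at 4 h, 8 for MS78 at 2 h, 12 for TRAP1 against TRAP-1-NegP and 13 against JQ1 at 2 h, and 32 for the TRAP-1-NegP effect. No count filter gave a median of 0.15 for TRAP-1-NegP at 2 h, 1 lower at 4 h, 2 calls for TRAP-1-NegB at 4 h and 1 for TRAP1 against TRAP-1-NegP at 2 h. DESeq2 gave 1 lower for TRAP-1-NegP at 4 h, 1 call for TRAP1 against TRAP-1-NegP and 8 against JQ1 at 2 h. Upper-quartile factors gave 5 higher and a median of −0.11 for JQ1 at 4 h. The stricter filter and the length-scaled counts each gave 1 call for TRAP1 against TRAP-1-NegP at 2 h. Without both libraries that stand apart there were 1 lower for TRAP-1-NegP at 4 h, 3 calls for TRAP1 against TRAP-1-NegP and 13 against JQ1 at 2 h, and 32 for the TRAP-1-NegP effect.

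Leaving out each library in turn, members lower with TRAP1 at 4 h ranged from 2 to 5 (5 without DMSO replicate 1), and the TRAP-1-NegP medians from 0.15 to 0.18 at 2 h and 0.12 to 0.17 at 4 h. JQ1 at 2 h had 6 to 12 higher and medians of −0.094 to 0.012. Calls ranged from 0 to 1 for TRAP1 against TRAP-1-NegP at 2 h and 13 to 22 at 4 h (13 without TRAP1 replicate 1), 0 to 5 for TRAP1 against JQ1 at 2 h, 21 to 35 for JQ1 against TRAP-1-NegP at 2 h, 25 to 37 for TRAP1 against TRAP-1-NegB at 2 h, 11 to 18 for the JQ1 effect (11 without JQ1 replicate 1 at 4 h), 12 to 27 for DMSO over time (12 without its 4 h replicate 2) and 5 to 18 for JQ1 against TRAP-1-NegB at 2 h.

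No pairing by replicate number was seen between a compound and DMSO of the same time. None of 30 same-number pairs had a correlation of deviations over 0.1 (−0.041 to 0.062). Pairs between compounds or between times were not examined, and such correlations cannot show whether libraries shared a culture. With the replicate block, members higher and lower were 45 and 4 for TRAP1, 24 and 0 for TRAP-1-NegP and 10 and 23 for JQ1 and 0 and 40 for MS78 at 4 h, and 61 and 0 for TRAP1 against JQ1.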

Other observations

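Of 37 factors that build complexes II to V, 8 were higher and 11 lower with TRAP1 at 4 h, 4 and 11 with TRAP-1-NegP, 6 and 16 with JQ1 and 1 and 8 with MS78, with medians of −0.12, −0.13, −0.20 and −0.10. The shares of all genes were 22.2% and 24.5%, 18.6% and 18.9%, 24.3% and 24.6%, and 6.23% and 9.05% in the same order. TACO1, a translational activator of the mitochondrially encoded COX1, was at 8.82 ± 1.09 CPM (SD, n = 3) with TRAP1 and 8.02 ± 2.52 with JQ1, against 35.2 ± 4.60 in DMSO. Both TACO1 differences were called by edgeR, with adjusted p-values of 6.84e-17 and 7.33e-18. LRPPRC, which stabilises mitochondrial messenger RNA, was higher by 0.60 and 0.80 on the log2 scale. The complex II assembly factor SDHAF2 fell by 0.30 with TRAP1 and by 0.80 with JQ1. 

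Of 26 genes of mitochondrial protein import, 7 were higher and 8 lower with TRAP1 at 4 h, 4 and 8 with TRAP-1-NegP, 6 and 13 with JQ1 and 2 and 11 with MS78. HSPD1, the matrix chaperonin, rose by 0.60 with TRAP1 and 0.55 with JQ1, and TIMM17A, of the inner membrane translocase, by 0.49 and 0.50. Of 13 genes of coenzyme Q synthesis, which supplies the electron carrier between complexes I, II and III, 4 were higher and 4 lower with TRAP1, 3 and 3 with TRAP-1-NegP, 2 and 5 with JQ1 and 0 and 1 with MS78. The shares of all genes given above for each compound apply to both lists. COQ10A rose by 1.84 with TRAP1 and 1.98 with JQ1. The values named here were chosen after they were seen, and all passed the edgeR test.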
